A study of Mus musculus with 16 samples.

Results

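The genes of voltage-gated sodium and calcium channels were followed in RNA from cultured mouse hippocampal cells. All protein-coding genes named Scn with a number and a closing a or b, and all whose names begin with Cacna1, Cacna2d or Cacnb, were taken. This gave 32 of the 54532 genes in the deposited tables: 14 sodium channel and 18 calcium channel subunits. Within the family, genes were taken by name only and by no measured value. The family itself was chosen with earlier results of these data known.

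Sodium channel alpha subunits (Nav, the Scn genes ending in a) form the pore that opens on depolarization and carries the rising phase of the action potential, and beta subunits (Scn genes ending in b) are small membrane proteins that alter gating and placement of the pore. Calcium channel alpha1 subunits (Cav) form the calcium pore: Cav1 channels are the L-type channels that couple depolarization to gene transcription, Cav2 channels trigger transmitter release, and Cav3 channels are the T-type channels that open near the resting potential. The alpha2delta subunits sit outside the membrane and the cytoplasmic Cav beta subunits bind the pore, and both raise the number of channels at the cell surface. In hippocampal neurons these channels set firing at the axon initial segment, release at the terminal and calcium entry in the dendrite.

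Bulk RNA sequencing was done in 4 groups of 4 libraries. KOVeh and KOLi were cultures of Shank3∆11(−/−) mice (KO), which carry a deletion in the gene of the postsynaptic scaffold SHANK3, and WTVeh and WTLi were cultures of wild type mice (WT). KOLi and WTLi received lithium (Li) at 0.1 mmol/l from day in vitro (DIV) 9 for 5 days, and KOVeh and WTVeh received water as vehicle (Veh). RNA was taken at DIV 14 by the study's methods, while the labels give DIV 14 to 29, another day for each library. All mice had a C57BL/6 background and the labels give pups of P1 to P2. Several hippocampi were pooled for each preparation, so that a library is no single animal, and the deletion removes only some of the SHANK3 isoforms. Libraries numbered 1 to 4 in each group are called replicates 1 to 4. Sequencing batch 1 held replicates 1 to 3 of every group, and batch 2 held replicate 4. A KO and a WT library of the same number form a pair. Nothing in the labels says that replicates came from separate cultures, so p-values measure the spread between these libraries, which may be technical.

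Total counts ranged from 16123067 to 35188300 per library. Shank3, the targeted gene, stood at 82.0, 162, 88.5 and 97.9 CPM (counts scaled to the same library total) in KOVeh replicates 1 to 4, against 204, 169, 236 and 267 CPM in WTVeh (p = 0.0286 by an exact two-sided permutation of 4 against 4 libraries, which can give no smaller p). In the libraries labelled KO replicate 2, however, Shank3 reached 0.956 of its WTVeh level and, with Li, 0.845 of its WTLi level, whereas the other KO libraries held 0.367 to 0.404 of theirs. The genotype calls, their logFCs under vehicle and the median over members are therefore also given without replicate 2, and the other values include it. Neurons were present by all 10 of 10 neuron markers, with summed levels of 4638 to 6404 CPM in KOVeh and 3976 to 5548 CPM in WTVeh, beside glial and dividing cells.

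Between genes, levels were compared as RPKM, which divides the CPM by the gene length in kilobases. Of the 32 genes, 26 passed the filter on low counts and were tested. The 6 that did not were channels of other organs: the skeletal muscle channels Scn4a, at 0 to 5 counts per library, and Cacna1s, at 2 to 17, the photoreceptor channel Cacna1f, at 3 to 32, and Scn9a, Scn10a and Scn11a of sensory neurons, at 4 to 20, 0 to 3 and 1 to 16. A count of 0, seen for Scn4a in 7 and for Scn10a in 9 libraries, allows up to 3 counts, or 0.0853 to 0.186 CPM by library. The skeletal muscle list summed to 0.807 to 2.07 CPM over the libraries of all groups with Myod1 at 0, and the photoreceptor list to 0.632 to 1.98 CPM with Crx at 0. The list for sensory neurons of ganglia was not as scarce. It summed to 14.2 to 29.1 CPM in KOVeh and 7.17 to 18.8 CPM in WTVeh, and to 16.8 to 29.2 CPM in KOLi and 5.64 to 16.7 CPM in WTLi. Of its 5 genes 2 were tested, both with a logFC above 0 in each genotype comparison and 0 called, and none was at 0 in all libraries.

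The sodium channel beta subunits Scn2b and Scn3b had medians of 38.6 and 32.9 RPKM over the 16 libraries. Scn4b, the beta subunit known from Purkinje cells and striatum, had a median of only 0.381 RPKM. Of the pore-forming sodium channels, Scn2a led with a median of 26.8 RPKM, ahead of Scn8a at 9.21, Scn3a at 4.43 and Scn1a at 2.91. These are the 4 alpha subunits of the brain: Nav1.2 is the early channel of axons, Nav1.6 the channel of mature initial segments and nodes, Nav1.3 the embryonic form and Nav1.1 the main channel of inhibitory interneurons. Scn7a, a sodium-sensing channel of glia, had a median of 0.407 RPKM.

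Of the summed RPKM of the alpha subunits, Scn2a supplied 60.5% ± 3.98 in KOVeh and 58.6% ± 1.70 in WTVeh, and 60.2% ± 2.70 in KOLi and 58.0% ± 2.56 in WTLi (SD, n = 4 each). Scn8a supplied 21.4% ± 2.64 in KOVeh and 22.2% ± 0.904 in WTVeh. Scn1a supplied 6.84% ± 0.732 in KOVeh and 6.34% ± 0.634 in WTVeh. For these 3 genes the means of KOVeh and WTVeh differed by less than the SD of the KOVeh libraries. For Scn2a they differed by more than the SD of the WTVeh libraries, and for Scn8a and Scn1a by less. The differences were not tested.

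Among the calcium channel pores, the P/Q-type Cacna1a and the N-type Cacna1b, which trigger transmitter release, stood highest at medians of 12.9 and 12.3 RPKM, and the T-type Cacna1h followed at 10.5. Cacna1a and Cacna1b each made up about the same part of the summed alpha1 RPKM, 22.1% ± 2.17 and 22% ± 1.79 over the 16 libraries (SD). The share of Cacna1a was 21.3% ± 1.08 in KOVeh and 22.9% ± 2.21 in WTVeh, and 20.3% ± 0.329 in KOLi and 23.8% ± 2.75 in WTLi (SD, n = 4 each). The L-type Cacna1c had 5.74, the R-type Cacna1e 5.36, the T-type Cacna1g 5.34, the L-type Cacna1d 3.38 and the T-type Cacna1i 3.18 RPKM. Of the auxiliary subunits, Cacnb3 and Cacnb1 had medians of 29.9 and 23.1 RPKM and exceeded Cacnb4 at 8.74 and Cacnb2 at 3.47. Cacna2d1 and Cacna2d3, at 14.3 and 12.4 RPKM, stood far above Cacna2d2 at 1.41 and Cacna2d4 at 0.272. Neighbours in this order could mostly not be told apart: the ranges over libraries overlapped for 30 of 31 neighbouring pairs of genes, all but Cacna2d4 and Scn11a.

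**Figure D1:**
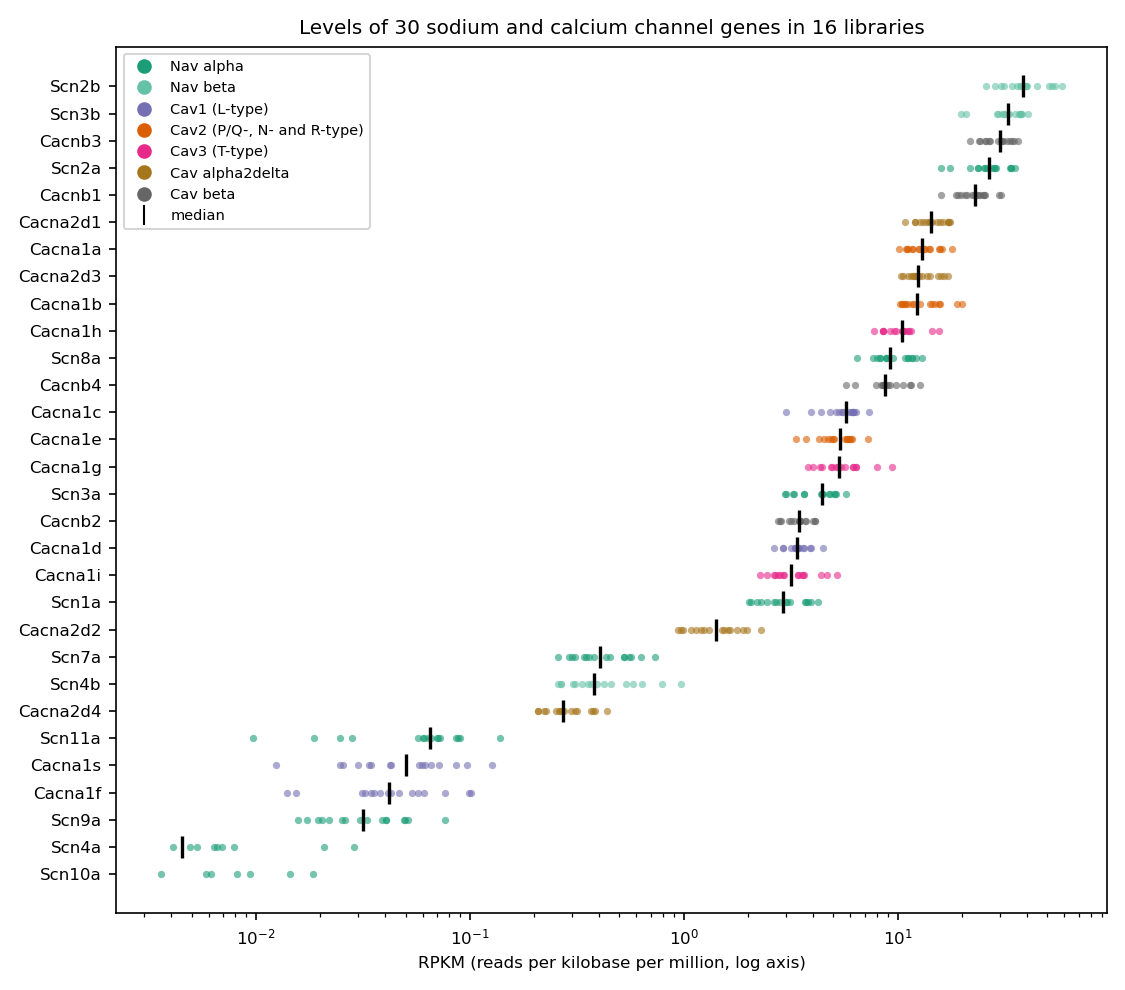
Level of 30 of the 32 genes in 16 libraries as RPKM on a log axis, with 1 point per library, a colour per family and a black bar for the median. Libraries with 0 counts (9 for Scn10a and 7 for Scn4a) cannot be drawn on a log axis. The beta subunit Scn2b stands at a median of 38.6 RPKM, above all pores drawn, and the 6 genes that were not tested stand lowest.

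The first comparison asked how loss of SHANK3 isoforms altered channel transcripts under vehicle. In KOVeh, 3 of the 26 tested members rose and none fell against WTVeh: the sodium channel pores Scn1a and Scn2a and the beta subunit Scn2b, by 1.35- to 1.46-fold. A gene was called at an adjusted p under 0.01 and a fold above 1.2 in edgeR's quasi-likelihood test. By this rule 5.5% of the 14783 tested genes were called, 2.08% higher and 3.42% lower. At an adjusted p under 0.05 without a fold limit, 10 of 26 members were higher and 0 lower, against 7.96% and 11.5% of all tested genes. The log2 fold change (logFC) was above 0 for 23 of 26 members, against 48.8% of all tested genes, with a median of 0.32, against -0.01 over all tested genes.

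Scn1a, the Nav1.1 pore, stood at 42.5, 29.4, 47.2 and 41.1 CPM in KOVeh replicates 1 to 4, against 27.3, 22.4, 33.9 and 25.7 CPM in WTVeh. Each KOVeh library exceeded the WTVeh library of its number, while the groups overlapped because KOVeh replicate 2 lay below WTVeh replicate 3. The logFC was 0.55 ± 0.09 (SE) with an adjusted p of 0.00300 in edgeR. Scn2a, the Nav1.2 pore, stood at 433, 365, 451 and 357 CPM in KOVeh and at 303, 202, 363 and 303 CPM in WTVeh. It was higher in 4 of 4 pairs, by the most in pair 2, where the WTVeh library was the lowest of all (logFC 0.47 ± 0.09, edgeR adjusted p = 0.00621). Scn2b, a beta subunit that forms a disulfide bond with the pore, stood at 237, 208, 273 and 175 CPM in KOVeh, against 188, 141, 184 and 146 CPM in WTVeh. It was likewise higher in 4 of 4 pairs (logFC 0.43 ± 0.08, edgeR adjusted p = 0.00370), though KOVeh replicate 4 lay within the WTVeh range.

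With Li in both genotypes, 5 of 26 members rose in KOLi against WTLi and none fell, where 6.36% of all tested genes were called, 2.76% higher and 3.6% lower. At an adjusted p under 0.05 without a fold limit, 11 of 26 members were higher and 0 lower, against 9.21% and 12.6% of all tested genes. The logFC was above 0 for 23 of 26, against 49.4% of all tested genes, with a median of 0.31. Scn1a, Scn2a and Scn2b were called here too, joined by the alpha2delta subunit Cacna2d3 and the beta subunit Cacnb1. Scn1a stood at 44.0, 30.0, 41.6 and 35 CPM in KOLi, against 33.5, 24.4, 31.3 and 22.9 CPM in WTLi (logFC 0.43 ± 0.09, edgeR adjusted p = 0.00788). Scn2a stood at 433, 350, 424 and 333 CPM in KOLi, against 327, 222, 322 and 277 CPM in WTLi (logFC 0.43 ± 0.09, edgeR adjusted p = 0.00867), and here every KOLi library lay above every WTLi library. Scn2b stood at 244, 173, 254 and 159 CPM in KOLi, against 186, 120, 168 and 133 CPM in WTLi (logFC 0.44 ± 0.08, edgeR adjusted p = 0.00328), with overlap between the groups. The comparisons under Li and vehicle share no library, but are not independent, since Li and Veh libraries of the same genotype and number were correlated (consensus correlation 0.507).

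Cacna2d3 encodes an alpha2delta subunit that helps to place calcium channels at terminals. It stood at 138, 103, 150 and 119 CPM in KOLi, against 101, 96.9, 103 and 90.0 CPM in WTLi (logFC 0.37 ± 0.08, edgeR adjusted p = 0.00660). Under vehicle it stood at 134, 107, 143 and 123 CPM in KOVeh, against 109, 106, 113 and 92.4 CPM in WTVeh (logFC 0.27 ± 0.08, edgeR adjusted p = 0.0283). In both treatments the replicate 2 libraries differed least. Cacnb1 encodes a cytoplasmic beta subunit best known from the L-type channel of muscle. Its level was 108, 86.4, 115 and 135 CPM in KOLi, against 89.4, 71.8, 101 and 103 CPM in WTLi (logFC 0.28 ± 0.05, edgeR adjusted p = 0.00455). Under vehicle it was 110, 93.2, 116 and 138 CPM in KOVeh, against 95.6, 84.9, 106 and 114 CPM in WTVeh (logFC 0.19 ± 0.05, edgeR adjusted p = 0.0230). All 4 pairs were higher in both treatments, but the groups overlapped, as replicate 2 was the lowest and replicate 4 the highest library in every group. That Cacna2d3 and Cacnb1 were called with Li and not with vehicle does not show a difference between treatments: the interaction gave 0.11 and 0.09 with no call. Without replicate 2, Cacna2d3 also passed the rule for a call under vehicle (logFC 0.36, edgeR adjusted p = 0.00186). Cacnb1 did not (logFC 0.21, edgeR adjusted p = 0.0148).

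**Figure D2:**
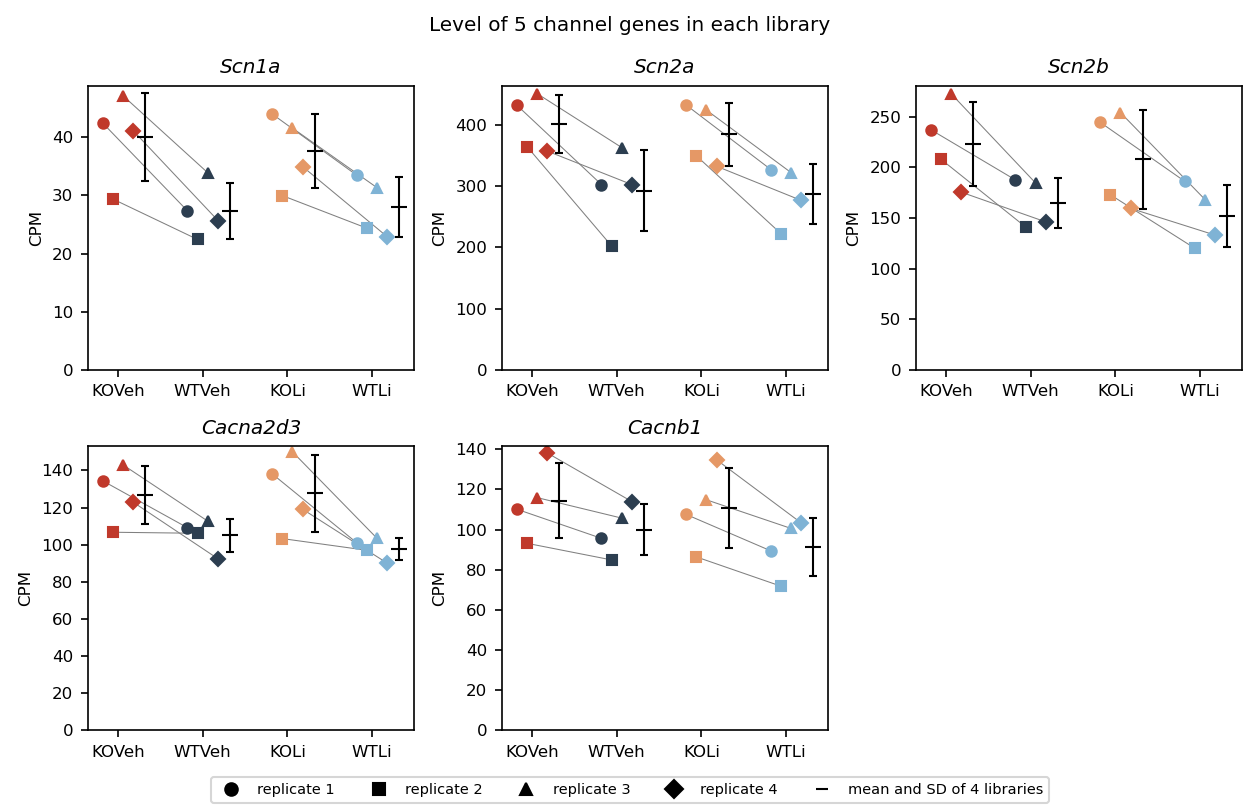
Level in CPM of the 5 called members in every library of KOVeh, WTVeh, KOLi and WTLi, with a symbol per replicate number, a grey line between the libraries of a pair and the mean with SD (n = 4) beside each group. The KO libraries of Scn1a, Scn2a, Scn2b, Cacna2d3 and Cacnb1 lie above their WT partners in all pairs.

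The calls depend on the pairing of libraries by number and on fitting all 4 groups together. Without the replicate block, 0 members and 0 genes in all were called in either comparison by edgeR, with 7 members (Veh) and 8 members (Li), and 2270 and 2770 of all genes, at an unadjusted p under 0.05. Fits to the compared groups alone keep the pairing but leave out the libraries of the other treatment. They also gave 0 members and 0 genes in both comparisons. With genotype and number as a random effect, limma-voom called 4 members higher and 0 lower in each comparison. It called 1.32% of all genes higher and 2.15% lower with Veh, and 1.95% and 2.54% with Li. The fit to sequencing batch 1 gave 1 member with Veh and 0 with Li, where 0.0612% and 0.0272% of all genes were called higher. Leaving out WTVeh replicate 1, KOVeh replicate 3 or KOVeh replicate 4 gave 0 members under vehicle. In these fits only 0.155%, 0.254% and 0.275% of all genes were called higher. With Li, leaving out KOLi replicate 1, KOLi replicate 3 or WTLi replicate 4 gave 0, with 0.435%, 1.05% and 0.302% of genes called higher. Leaving out KOLi replicate 4, WTLi replicate 1 or WTLi replicate 3 gave 1 member, with 0.651%, 1.05% and 0.87% of genes. Leaving out KOLi replicate 2 gave 3 members, with 2.47% of genes. Over these fits and the others tried, the logFC of the called members stayed above 0, from 0.36 to 0.62 under vehicle and from 0.24 to 0.53 with Li. From replicates 1, 3 and 4 alone, edgeR tested 28 members and called 4 higher and 0 lower with Veh, where 3.55% of 14866 genes were called higher and 7.53% lower. With Li it called 6 members higher and 1 lower, against 4.31% and 7.51% of the genes. In that fit the logFC with Veh was 0.60 for Scn1a, 0.36 for Scn2a and 0.40 for Scn2b, and the median of the 26 members was 0.35 with Veh and 0.37 with Li.

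The promoters of the called genes are printed to show what these genes share and do not share in sequence. Each window runs from 250 bases before to 50 bases after a transcription start of NCBI RefSeq (GRCm38.p6, 5′ to 3′ on the strand of the gene). Of the 32 genes, 24 matched at least 1 window. Scn3a, Scn3b, Cacna1a, Cacna1g, Cacna1h and Cacna2d4 were among those that did not. Capitals mark the GC box GGGCGG and the TATA box TATAAA on either strand.
Scn1a, chr2:66440788-66441087, minus strand: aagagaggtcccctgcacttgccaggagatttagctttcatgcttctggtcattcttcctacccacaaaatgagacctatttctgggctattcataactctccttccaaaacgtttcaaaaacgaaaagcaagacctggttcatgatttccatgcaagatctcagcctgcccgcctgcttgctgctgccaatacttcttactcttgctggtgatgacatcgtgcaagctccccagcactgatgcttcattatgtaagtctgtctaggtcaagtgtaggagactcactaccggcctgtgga
Scn2a upstream start, chr2:65620519-65620818, plus strand: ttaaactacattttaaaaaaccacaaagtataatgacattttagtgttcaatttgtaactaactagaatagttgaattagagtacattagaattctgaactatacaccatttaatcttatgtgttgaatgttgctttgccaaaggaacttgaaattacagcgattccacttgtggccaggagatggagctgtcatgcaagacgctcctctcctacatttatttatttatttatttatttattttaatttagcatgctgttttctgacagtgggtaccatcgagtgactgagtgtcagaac
Scn2a downstream start, chr2:65668436-65668735, plus strand: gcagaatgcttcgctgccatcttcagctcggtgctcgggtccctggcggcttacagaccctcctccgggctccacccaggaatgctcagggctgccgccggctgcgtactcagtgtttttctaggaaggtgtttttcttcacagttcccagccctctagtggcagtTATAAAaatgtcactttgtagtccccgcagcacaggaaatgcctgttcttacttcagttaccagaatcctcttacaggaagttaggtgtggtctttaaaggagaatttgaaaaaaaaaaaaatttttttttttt
Scn2b, chr9:45117626-45117925, plus strand: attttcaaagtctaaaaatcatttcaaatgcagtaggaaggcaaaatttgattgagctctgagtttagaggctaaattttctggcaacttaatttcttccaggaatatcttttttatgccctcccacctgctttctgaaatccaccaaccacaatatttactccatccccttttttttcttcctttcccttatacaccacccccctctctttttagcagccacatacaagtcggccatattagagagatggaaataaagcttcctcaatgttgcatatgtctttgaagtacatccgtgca
Cacnb1 upstream start, chr11:98022578-98022877, minus strand: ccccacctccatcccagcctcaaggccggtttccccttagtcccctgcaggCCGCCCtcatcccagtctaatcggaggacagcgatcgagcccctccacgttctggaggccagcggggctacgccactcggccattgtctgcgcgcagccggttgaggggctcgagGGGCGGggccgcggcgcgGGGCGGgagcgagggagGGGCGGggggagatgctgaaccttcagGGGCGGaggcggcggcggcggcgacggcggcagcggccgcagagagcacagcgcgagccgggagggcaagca
Cacna2d3, chr14:29721815-29722114, minus strand: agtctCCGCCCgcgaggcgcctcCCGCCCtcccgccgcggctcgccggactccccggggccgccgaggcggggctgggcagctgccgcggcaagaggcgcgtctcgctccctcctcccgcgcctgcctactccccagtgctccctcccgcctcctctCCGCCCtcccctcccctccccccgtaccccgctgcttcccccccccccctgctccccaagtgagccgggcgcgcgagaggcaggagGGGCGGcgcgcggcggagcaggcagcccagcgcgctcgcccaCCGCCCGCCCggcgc
The windows of Scn1a, Scn2a and Scn2b held no GC box, and had a GC content of 47.3% for Scn1a, 33.0% for the upstream and 47.7% for the downstream Scn2a start, and 38.3% for Scn2b. The downstream Scn2a window held 1 TATA box. The Cacnb1 and Cacna2d3 windows shown held 5 and 6 GC boxes and had a GC content of 73.7% and 81.3%. Another Cacnb1 start, not printed, had no GC box and 59.3% GC. GC boxes occurred in 14 of the 34 member windows (41.2%), against 35.7% of all 32851 windows, and TATA boxes in 2 (5.88%), against 13.6%. The cAMP response element TGACGTCA and the left part of the RE1 element of the neuronal repressor REST, TTCAGCACC, were in 0 member windows and in 1.79% and 0.371% of all windows. A match is a description of letters and no test of binding.

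Around these genes on the map, Scn1a, Scn2a, Scn3a, Scn7a and Scn9a form a cluster on chromosome 2, and Scn10a and Scn11a are neighbours on chromosome 9. Scn2a spans chr2:65620771-65767447 on the plus strand and Scn1a chr2:66270778-66440840 on the minus strand, by the deposited tables (GRCm38.p6). Scn2b lies at chr9:45117782-45130070 beside Scn4b at chr9:45138395-45154152. The sodium channel pores are alike in sequence, so that reads shared between them could have been split or dropped in the counting, and their separate values are uncertain to that degree.

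Of the remaining sodium channel pores, Scn8a and Scn3a were at an adjusted p under 0.05 but not called. Scn8a (Nav1.6) stood at 171, 138, 193 and 204 CPM in KOVeh, against 131, 102, 176 and 140 CPM in WTVeh (logFC 0.38 ± 0.08, edgeR adjusted p = 0.0112). With Li it stood at 177, 130, 185 and 184 CPM in KOLi, against 139, 121, 150 and 126 CPM in WTLi (logFC 0.32 ± 0.09, edgeR adjusted p = 0.0201). KOLi replicate 2 was the low library in an otherwise narrow group. Scn3a (Nav1.3) stood at 55.2, 55.1, 63.3 and 71.2 CPM in KOVeh, against 45.6, 37.2, 60.1 and 40.3 CPM in WTVeh (logFC 0.44 ± 0.11, edgeR adjusted p = 0.0186). With Li it stood at 63.9, 55.7, 62.7 and 59.7 CPM in KOLi, against 45.4, 40.6, 54.8 and 37.4 CPM in WTLi (logFC 0.45 ± 0.11, edgeR adjusted p = 0.0160), where the groups did not overlap.

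Under vehicle 1 of 26 members had KOVeh libraries all above the WTVeh libraries, Cacnb4, where 2.45% of all tested genes did so. With Li it was 3 of 26, Scn2a, Scn3a and Cacna1h, where 3.33% of all tested genes did so. Wholly below lay 0 of 26 members in either comparison, against 2.86% of all tested genes in KOVeh and 2.5% in KOLi. Higher in all 4 pairs were 15 of 26 members in KOVeh and 12 of 26 in KOLi, against 14.2% and 18.7% of all tested genes. Lower in all 4 pairs were 0 of 26 in KOVeh and 1 of 26 in KOLi, against 17.2% and 20.6%. At an unadjusted p under 0.05 were 16 and 18 of 26, against 34.2% and 36.6%.

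Scn7a, the channel of glia, had the opposite sign and was not called. Scn7a stood at 2.20, 3.86, 2.50 and 2.63 CPM in KOVeh, against 3.18, 2.27, 2.79 and 4.05 CPM in WTVeh (logFC -0.20 ± 0.25). With Li it stood at 2.14, 4.61, 2.57 and 1.88 CPM in KOLi, against 3.85, 5.37, 3.32 and 4.15 CPM in WTLi, lower in 4 of 4 pairs (logFC -0.61 ± 0.25, edgeR adjusted p = 0.103).

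Scn3b, a beta subunit that binds the pore without a disulfide bond, had a logFC of 0.20 in KOVeh and 0.28 in KOLi and was not called. Scn4b had the highest logFC of all members, 0.69 ± 0.30 in KOVeh and 0.80 ± 0.31 in KOLi, at 1.29 to 4.84 CPM and with adjusted p-values of 0.128 and 0.0831 (edgeR). Its low counts, 24 to 80 per library, go with that wide error.

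Among the calcium channel pores no gene was called. The R-type Cacna1e, which serves dendritic calcium entry and release, stood at 149, 113, 153 and 183 CPM in KOVeh, against 108, 84.0, 143 and 147 CPM in WTVeh (logFC 0.32 ± 0.09, edgeR adjusted p = 0.0223). With Li it stood at 149, 123, 155 and 146 CPM in KOLi, against 119, 94.0, 127 and 126 CPM in WTLi (logFC 0.31 ± 0.09, edgeR adjusted p = 0.0262), where only KOLi replicate 2 fell within the WTLi range. The T-type Cacna1h stood at 109, 106, 112 and 141 CPM in KOLi, against 89.4, 83.3, 103 and 82.9 CPM in WTLi, without overlap (logFC 0.37 ± 0.12, edgeR adjusted p = 0.0464). In KOVeh its logFC was 0.31 ± 0.12 with an adjusted p of 0.0872.

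The other pores had positive logFCs of graded size. The N-type Cacna1b, at 0.32 in KOVeh and 0.35 in KOLi, and the L-type Cacna1c, at 0.35 and 0.28, lay near the median of the members. So did the T-type Cacna1g, at 0.33 and 0.36, and Cacna1i, at 0.32 and 0.30. The P/Q-type Cacna1a, at 0.17 ± 0.06 and 0.03 ± 0.06, and the L-type Cacna1d, at 0.11 ± 0.11 and 0.05 ± 0.11, were the lowest of the 8 tested pores. Cacna1a had one of the smallest errors of all members, and its difference between KOLi and WTLi had an adjusted p of 0.754 (edgeR).

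Of the auxiliary calcium channel subunits, Cacna2d1, the target of gabapentin, stood at 213, 158, 217 and 215 CPM in KOVeh, against 175, 134, 196 and 164 CPM in WTVeh (logFC 0.27 ± 0.07, edgeR adjusted p = 0.0161). With Li it stood at 201, 168, 214 and 189 CPM in KOLi, against 179, 149, 173 and 149 CPM in WTLi (logFC 0.25 ± 0.07, edgeR adjusted p = 0.0212). In both treatments the KO library of replicate 2 alone overlapped the WT range. Cacnb4, the beta subunit whose loss causes the lethargic mouse, stood at 114, 87.8, 103 and 82.3 CPM in KOVeh, against 75.1, 51.2, 76.2 and 80.9 CPM in WTVeh (logFC 0.46 ± 0.10, edgeR adjusted p = 0.0114). The groups did not overlap, though the libraries of replicate 4 nearly met. With Li it stood at 103, 77.7, 95.2 and 76.2 CPM in KOLi, against 78.9, 56.6, 71.1 and 76.6 CPM in WTLi (logFC 0.31 ± 0.10, edgeR adjusted p = 0.0487), and the KOLi library of replicate 4 lay just below its WTLi partner. Of its exon bases, 16% overlap a gene on the other strand, A430018G15Rik, which had a median of 1 count. Whether reads were counted by strand was not stated, so the reads of the pair cannot be told apart. Cacna2d2, Cacnb2 and Cacnb3 had logFCs of 0.42, 0.15 and 0.18 in KOVeh and 0.40, 0.11 and 0.33 in KOLi, and Cacna2d4 -0.14 and -0.14. All were uncalled in the fit to all libraries. Without replicate 2, Cacnb3 passed the rule for a call with Li (logFC 0.44, edgeR adjusted p = 0.00405). Under vehicle it did not (logFC 0.34, edgeR adjusted p = 0.012).

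**Figure D3:**
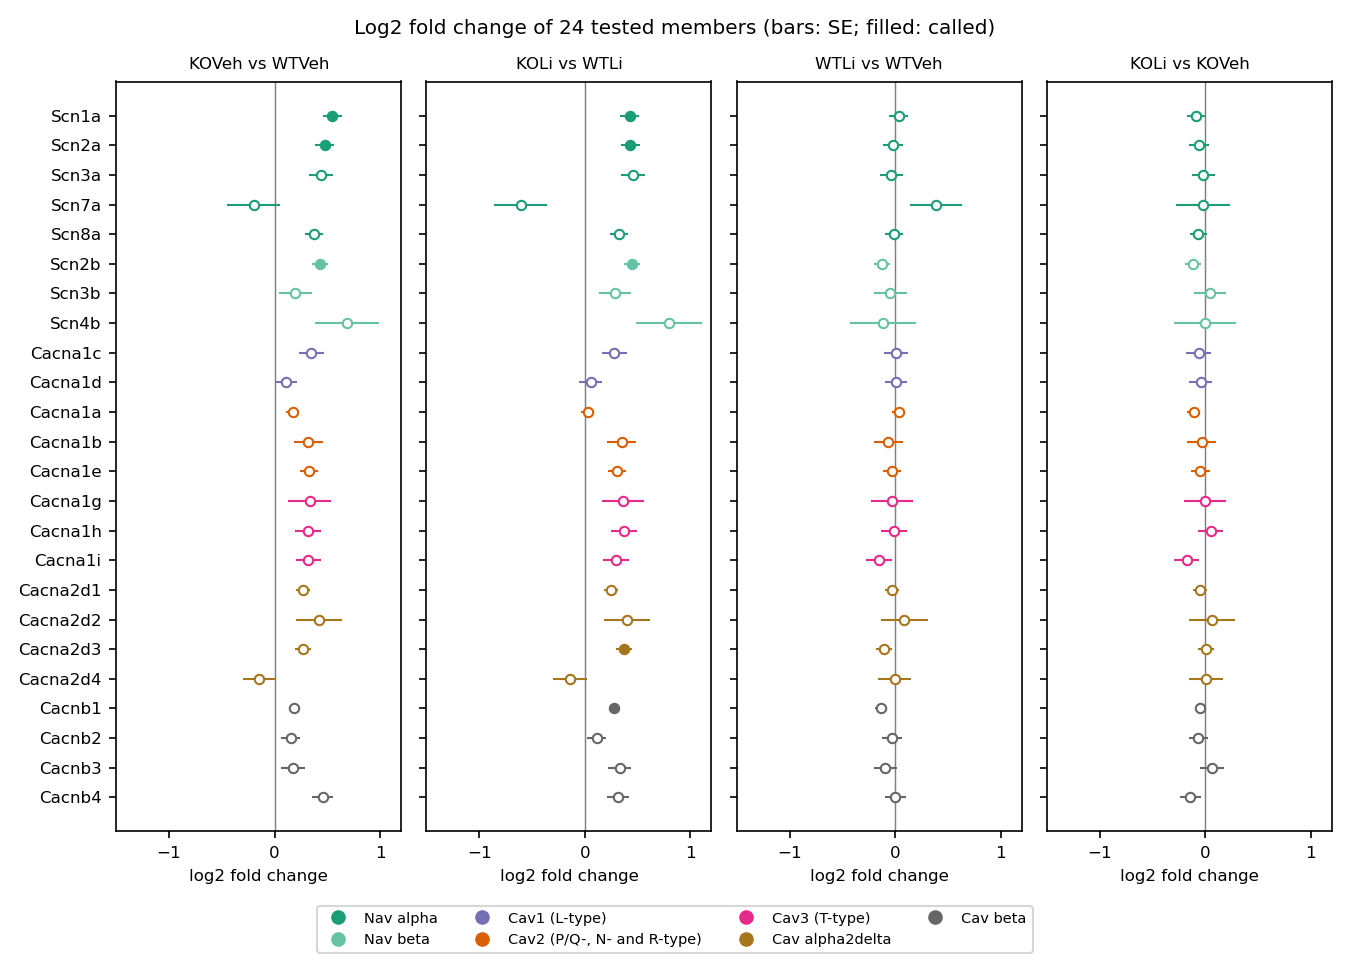
Log2 fold change of 24 of the 26 tested members in 4 comparisons, with SE as bars, a colour per family and filled points for called genes. In KOVeh against WTVeh and KOLi against WTLi, 22 of 24 points lie above 0, while in WTLi against WTVeh and KOLi against KOVeh none is called and nearly all points lie close to 0.

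As sums over a family, the sodium channel pores had 52.1 ± 4.94 RPKM in KOVeh and 39.1 ± 8.41 RPKM in WTVeh, and 50.1 ± 5.35 RPKM in KOLi and 38.7 ± 5.10 RPKM in WTLi (SD, n = 4). The calcium channel pores had 67.2 ± 13.9 RPKM in KOVeh and 55.3 ± 9.46 RPKM in WTVeh, and 64.9 ± 9.85 RPKM in KOLi and 54.1 ± 3.90 RPKM in WTLi. For the sodium channel pores the KO and WT means thus lay more than 1 SD apart in both treatments, and so did those of the calcium channel pores with Li. Under vehicle the calcium channel means lay more than the SD of WTVeh but less than the SD of KOVeh apart. By pair, the median difference of the 26 members in log2 CPM was 0.32, 0.33, 0.13 and 0.36 in KOVeh and 0.33, 0.18, 0.26 and 0.31 in KOLi. Every pair thus had a positive median, with pair 3 the lowest under vehicle and pair 2 the lowest with Li.

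Markers of cell types moved with these results. In bulk RNA, fewer cells of a type and less RNA per cell cannot be told apart. The study also stained cultures of both genotypes, grown on other plates, for neurons, astrocytes, microglia and oligodendrocytes. It reported that their shares of all nuclei did not depend on genotype. All 10 neuron markers had a logFC above 0 in both genotype comparisons and 2 were called higher in each. The summed level of the list was 4377 to 6113 CPM in KOLi and 3589 to 5165 CPM in WTLi, with the values under vehicle given above. Excitatory neuron markers (7 of 7 above 0) and interneuron markers (8 of 8 above 0) moved likewise. Their median logFCs were 0.29 and 0.47 in KOVeh and 0.33 and 0.53 in KOLi. Markers of oligodendrocytes summed to 74.7 to 149 CPM in KOVeh and 116 to 474 CPM in WTVeh, and those of ependymal cells to 54.2 to 268 CPM in KOVeh and 115 to 270 CPM in WTVeh. The high ends of the KOVeh ranges of these lists were both replicate 2, and the other KOVeh libraries had at most 86.0 and 60.3 CPM. The WTVeh high end of the oligodendrocyte list was replicate 2 as well. Meningeal fibroblast markers summed to 641 to 752 CPM in KOVeh and 914 to 1021 CPM in WTVeh, and 2 of 5 were called lower in each comparison. Mural cell markers summed to 25.4 to 123 CPM in KOVeh and 82.5 to 216 CPM in WTVeh, with a median logFC of -1.24 in KOVeh and 1 of 5 tested called lower in each. Oligodendrocyte precursor markers summed to 284 to 587 CPM in KOVeh and 348 to 459 CPM in WTVeh, with 5 of 5 below 0 in KOVeh and 1 called lower in each comparison. Of the proliferating cell markers 5 of 5 were called lower in each comparison, with sums of 36.7 to 73.3 CPM in KOVeh and 79.5 to 146 CPM in WTVeh. Microglia markers had 7 of 7 logFCs below 0 in each comparison with 0 called. Astrocyte markers had 5 of 7 below 0 and 2 of 7 above 0, with 1 called higher and 0 lower in each comparison. None of these markers was at 0 in all libraries.

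The members were also set against the mean of the 10 neuron markers. That mean differed by 0.26 ± 0.15 (log2, SD over 4 pairs) between KOVeh and WTVeh and by 0.30 ± 0.14 between KOLi and WTLi. Relative to it, the median member differed by 0.05 and 0.01, and 16 and 14 of 26 members were above 0. Scn1a exceeded the marker mean in 4 of 4 pairs in both treatments, by 0.33, 0.29, 0.29 and 0.24 under vehicle and by 0.04, 0.13, 0.22 and 0.14 with Li. These 10 markers are of neurons at large, and Scn1a was not set against interneuron markers by pair. The median logFC of the interneuron list was 0.47 under vehicle and 0.53 with Li, beside 0.55 and 0.43 for Scn1a. Scn2a exceeded the neuron marker mean in 3 of 4 pairs in each treatment, with 0.75 in pair 2 and -0.20 in pair 4 under vehicle. Also above it in 4 of 4 pairs were Scn4b under vehicle and Scn3a with Li. Below it in 4 of 4 pairs were Cacna2d4 under vehicle and Scn7a and Cacna1a with Li, by means of -0.94 for Scn7a and -0.27 for Cacna1a. These relative values were not tested, and the part of cell make-up in the calls was not tested.

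**Figure D4:**
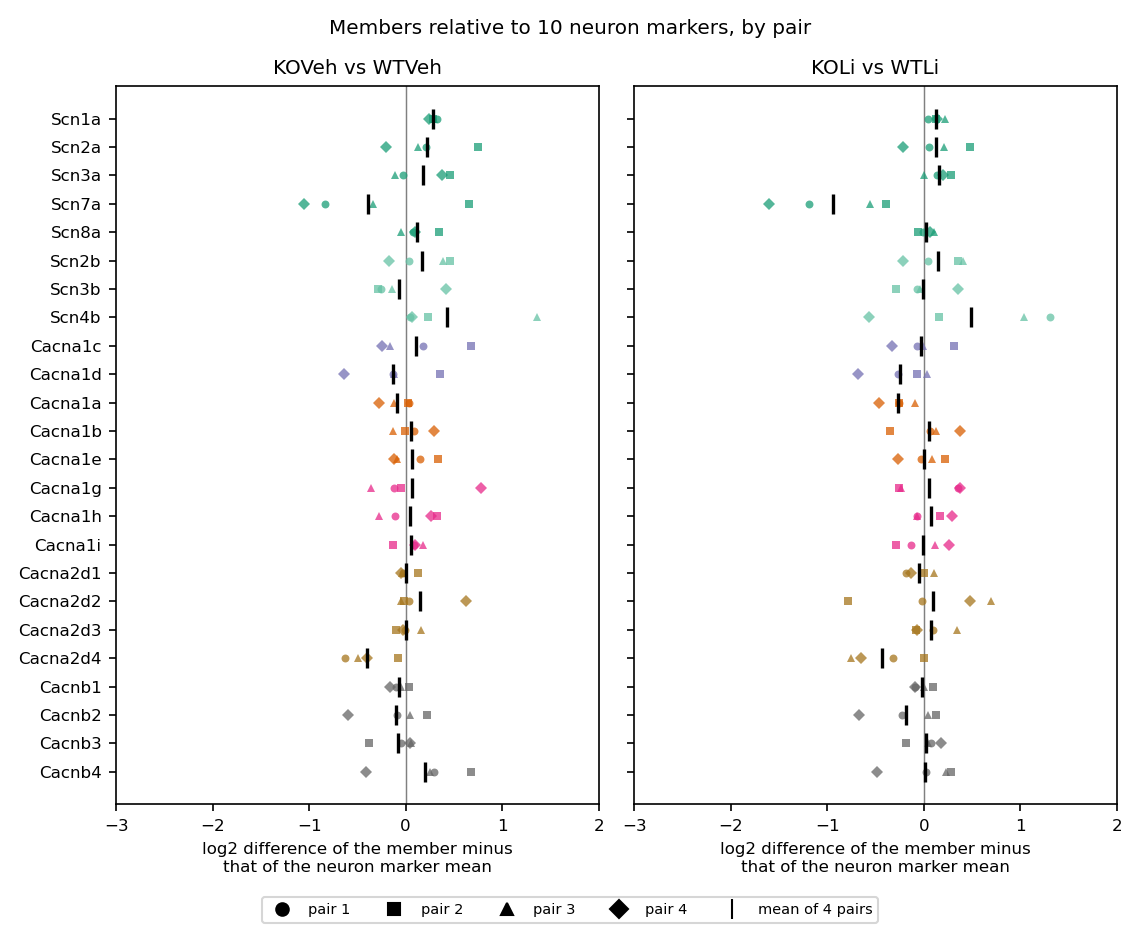
Log2 difference of 24 of the 26 tested members between KO and WT libraries of a pair, less the difference of the mean of 10 neuron markers in the same pair, for vehicle (left) and Li (right), with a symbol per pair and a black bar for the mean of 4 pairs. The bars scatter around 0, where the medians of all 26 are 0.05 and 0.01, and those of Scn1a lie at 0.29 and 0.13 with all 4 pairs above 0.

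The members are long genes, with a median span of 111 kb, against 25 kb over all tested genes. Of the 2289 other tested genes of at least 100 kb, 5.99% were called higher in KOVeh with a median logFC of 0.10, against 1.34% and -0.02 for the 12468 shorter ones. The 17 tested members of at least 100 kb had a median logFC of 0.32 and the 9 shorter ones of 0.23, while with Li the medians were 0.31 and 0.33. The part of gene length in the members' values was not tested.

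Proteins that bind or serve these channels were described from 5 lists, again by counts and medians only. The sodium leak channel complex around NALCN, which carries the background sodium current of neurons, had 3 of 4 genes called higher in KOVeh and none lower, with a median logFC of 0.42. The pore Nalcn stood at 139, 119, 149 and 113 CPM in KOVeh, against 105, 80.2, 114 and 91.0 CPM in WTVeh (logFC 0.42 ± 0.06, edgeR adjusted p = 0.00227), with only KOVeh replicate 4 inside the WTVeh range at its upper end. Its subunits Unc80 and Fam155a had logFCs of 0.64 ± 0.10 and 0.43 ± 0.08 (edgeR adjusted p = 0.00291 and 0.00488), and Unc80 ranged from 89.8 to 133 CPM in KOVeh and from 49.2 to 90.9 CPM in WTVeh. With Li the same list again had 3 of 4 called higher, with a median of 0.38.

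Of 16 genes of sodium channel partners and the axon initial segment, 2 were called higher and 0 lower in KOVeh: the adhesion protein Nrcam (0.33 ± 0.06, edgeR adjusted p = 0.00621) and the ubiquitin ligase Nedd4l (0.31 ± 0.07, edgeR adjusted p = 0.00838). Fgf14, an intracellular factor that binds the tails of sodium channels, had a logFC of 0.45 ± 0.10 at an adjusted p of 0.0110 and was not called. The median of this list was 0.20 in KOVeh and 0.18 in KOLi, where 2 were called higher, Fgf14 and Nrcam, and 0 lower. Of 19 tested partners of calcium channels, 3 were called higher and 1 lower in each comparison. Rimbp2, which links Cav2 channels to the release site, had 0.47 ± 0.09, and Cachd1, an alpha2delta-like protein, -0.42 ± 0.07 in KOVeh, both with an adjusted p under 0.01 in edgeR. Also called higher, and named after their values were seen, were the active zone genes Erc1 in KOVeh (0.36 ± 0.08) and Rims3 in KOLi (0.42 ± 0.09). Cachd1 was at 51.5, 65.4, 41.0 and 65.0 CPM in KOVeh, against 71.4, 77.4, 58.3 and 89.6 CPM in WTVeh, lower in every pair and opposite in sign to most of the members.

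Of the gamma subunits and TARPs, relatives of the calcium channel gamma subunit of which several carry AMPA receptors, 1 of 7 tested was called higher in each comparison, Cacng2 (stargazin), at 0.39 ± 0.07 in KOVeh. Cacng5 and Cacng3 had 0.70 ± 0.16 and 0.56 ± 0.16 and were not called. Of 19 genes of calcium stores and extrusion, 2 were called higher and 0 lower in KOVeh: the plasma membrane pump Atp2b2 (0.40 ± 0.07) and the reticulum pump Atp2a2 (0.28 ± 0.06). Atp2b3, another plasma membrane pump, had 0.48 ± 0.12 and was not called. With Li 1 was called higher and 0 lower, Atp2b2 at 0.35 ± 0.07. The list medians were 0.39 for the gamma family and 0.27 for stores and extrusion in KOVeh, and 0.22 and 0.23 in KOLi.

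**Figure D5:**
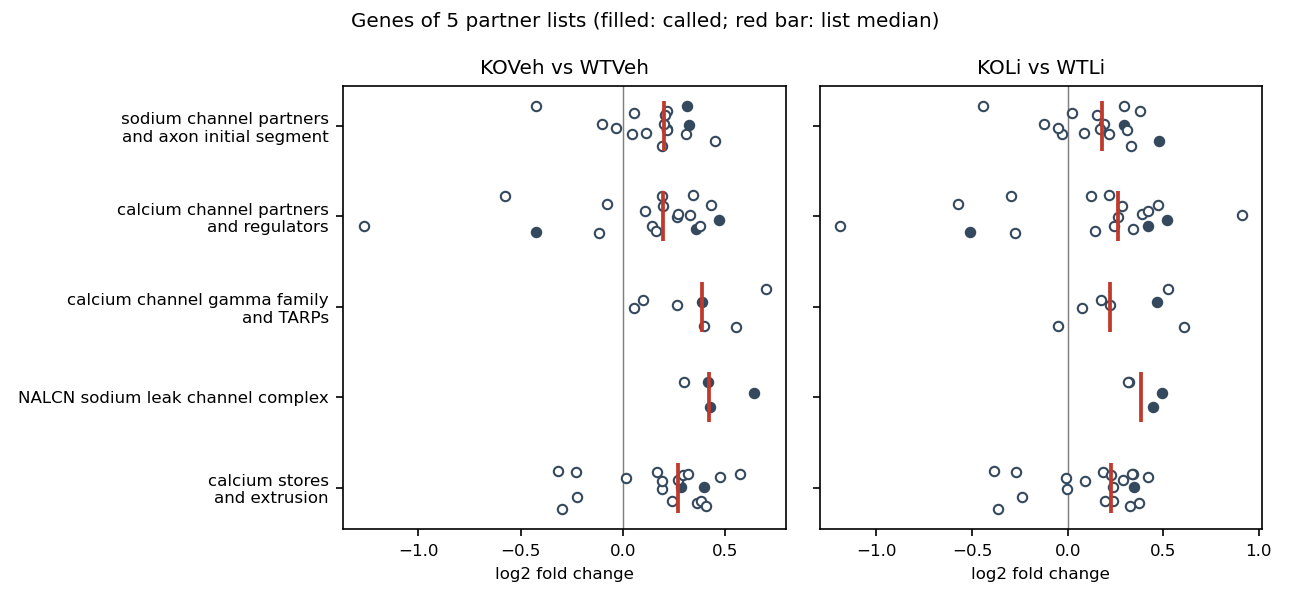
Log2 fold change of tested genes of 5 lists of channel partners between KOVeh and WTVeh (left) and between KOLi and WTLi (right), with filled points for called genes and a red bar for the list median. All medians lie between 0.18 and 0.42, and the called gene below 0 is Cachd1.

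The second question was whether Li altered channel transcripts within a genotype. In WTLi against WTVeh and in KOLi against KOVeh, edgeR called 0 of 26 members and 0.0% of all tested genes, and DESeq2 and limma-voom also called 0 genes. At an unadjusted p under 0.05 there was 1 member in WTLi, Cacnb1, and 0 in KOLi. Of all tested genes 217 (1.47%) and 225 (1.52%) were at that level. That fit leaves out the correlation of Li and Veh libraries of the same genotype and number. Fits to the compared groups alone, which pair them, had 4 of 26 members and 1135 of 14491 genes in WTLi. In KOLi they had 5 of 26 and 1240 of 14190. A random effect in limma-voom for genotype and number gave 2 members and 867 genes in WTLi, and 0 and 636 in KOLi. These fits called 0 genes. Cacnb1 stood at 89.4, 71.8, 101 and 103 CPM in WTLi, against 95.6, 84.9, 106 and 114 CPM in WTVeh and was lower in 4 of 4 pairs. Its logFC was -0.14 ± 0.05, with an adjusted p of 0.999 in edgeR. In KOLi it was also lower in 4 of 4 pairs, with a logFC of -0.05. The median logFC of the members was -0.03 in WTLi and -0.05 in KOLi, with logFCs above 0 for 8 and 7 of 26, against 49.8% and 51.0% of all tested genes. Their range was -0.17 to 0.39 in WTLi and -0.18 to 0.19 in KOLi.

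The highest of these values belonged to Scn7a, with a logFC of 0.39 in WTLi against WTVeh. It was among the 2 members higher in all 4 pairs, where 8.88% of all tested genes were. Lower in all 4 pairs were 4 of 26 (7.83% of all tested genes): Cacna2d3, Cacnb1, Scn2b and Scn3b. In KOLi against KOVeh, 1 of 26 was higher in all 4 pairs (7.76%), Cacnb3, and 5 were lower (8.41%), among them Cacnb1, Cacnb4, Cacna1a and Cacna1i. The members did not move alike across WT pairs: 17 and 16 of 26 were higher in WTLi in pairs 1 and 2, and 4 and 6 in pairs 3 and 4. In KO pairs 16, 12, 10 and 2 of 26 were higher in KOLi. The neuron marker mean differed by -0.13 ± 0.07 in WTLi against WTVeh and by -0.09 ± 0.06 in KOLi against KOVeh (log2, SD over 4 pairs).

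The interaction asked whether the effect of Li differed between KO and WT, or equally the effect of genotype between Li and vehicle. By edgeR 0 of 26 members and 0.0% of all tested genes were called. At an unadjusted p under 0.05 were 0 members and 112 genes (0.758%). With genotype and number as a random effect, limma-voom had 0 members and 306 of 14783 genes at that level. DESeq2 and limma-voom called 0 as well. The interaction logFC of the members ranged from -0.41 for Scn7a to 0.15 for Cacnb3, with a median SE of 0.16. For Scn1a, Scn2a and Scn2b it was -0.12, -0.04 and 0.01.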

How the data were processed

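RNA of 16 libraries, 4 in each of 4 groups, was sequenced as paired ends. Per the submitters' processing notes, HISAT2 2.0.5, featureCounts 1.5.0-p3 and GRCm38.p6 were used. The authors deposited raw read counts per gene in 2 tables of 54532 genes, matched here by gene identifier since 14 gene names differ between them.

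Total counts were 16123067 to 35188300 per library, and the floors given for a count of 0 cover counting error only. Counts were scaled by TMM (factors 0.965 to 1.03) and filtered (minimum count 15, proportion 0.25), which kept 14783 of 33134 genes of the kept biotypes. edgeR 4.0.16 (R 4.3.3) fitted quasi-likelihood models with group and replicate number, with Benjamini-Hochberg adjustment over all tested genes. A call needed an adjusted p under 0.01 together with a fold above 1.2. Since the study used limma-voom, that tool was run as an alternative (limma 3.58.1) beside DESeq2 1.42.0. The scripts were tested on simulated data.

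Deviations from group means of same-numbered libraries correlated in every comparison (lowest r 0.162, highest 0.882), so the numbers were taken to pair the libraries. That they are the study's experimental batches is not stated in the labels. The genes named were all members, those with an adjusted p under 0.05 with every library's value, Shank3 and the 3 genes with the smallest p of each partner list in KOVeh against WTVeh. Members and lists were chosen with earlier results of these data known. Results of some genes are not reported here.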

Additional observations from a re-analysis of the deposited data

Results flagged for a closer look

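In each group of 4 libraries, the lowest and highest CPM of 24 of the 26 tested members were examined for a gap to the nearest other library that took up more of the whole range than Dixon's 95% critical value allows. Of 96 combinations of member and group 5 did so, and chance gives about 1 in 20 (5%).

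Libraries of replicate 2 stood low for 3 genes. Cacna2d1 had 158 CPM in KOVeh replicate 2, beside 213 to 217 CPM in the other KOVeh libraries. Scn8a had 130 CPM in KOLi replicate 2, beside 177 to 185 CPM. Cacnb2 had 36.5 CPM in WTVeh replicate 2, beside 45.7 to 46.4 CPM.

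Libraries of replicate 4, the sequencing batch of its own, stood high for the other 2. The T-type pores Cacna1g and Cacna1h had 95.3 and 153 CPM in KOVeh replicate 4, beside at most 57.4 and 103 CPM in the other KOVeh libraries.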

How the results depend on the processing

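Against 3 members called higher in KOVeh and 5 in KOLi, DESeq2 called 9 and 8, limma-voom with quality weights 8 and 9, and an adjusted p under 0.05 without a fold limit 10 and 11. Calls over all genes rose too, to 5.24% higher and 7.47% lower in KOVeh with DESeq2 and 5.1% and 9.18% with quality weights, against 2.08% and 3.42%. In KOLi they rose to 5.74% and 8.11% with DESeq2 and 6.01% and 8.69% with quality weights, against 2.76% and 3.6%. DESeq2's size factors in edgeR, no filter on low counts and all biotypes each called 5 in KOVeh. They called 2.63%, 1.48% and 2.41% of all genes higher. Library totals without TMM called 1 in KOLi, where 1.72% of all genes were called higher. Without the replicate block, with a sequencing batch term in place of the replicate block, and with the compared groups alone, 0 and 0 were called, and sequencing batch 1 alone gave 1 and 0. Replicates 1, 3 and 4 gave 1 member lower in KOLi. With limma-voom, chosen after seeing the data, those replicates gave 5 higher and 1 lower in KOVeh and 7 higher and 1 lower in KOLi. Of 14866 genes, that fit called 3.94% higher and 8.6% lower in KOVeh, and 4.35% and 8.27% in KOLi. Leaving out 1 library at a time gave 0 to 4 in KOVeh and 0 to 5 in KOLi. Over all genes, 0.155% to 3.1% and 0.302% to 2.47% were then called higher. No called member changed sign. Of the values of uncalled members, 3 of 552 changed sign in KOVeh against WTVeh, 1 of 504 in KOLi against WTLi, 93 of 624 and 71 of 624 for Li in WT and KO, and 118 of 806 in the interaction. Scn4b and Cacna2d4 had the lowest median counts of the tested members, 51 and 54 per library, and 6 members could not be tested.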
